A study of Macaca fascicularis with 10 samples.

Results

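Neurotransmitter receptor genes are described here as the set of rows whose symbol begins like a subunit or receptor for GABA, glutamate, acetylcholine, serotonin, noradrenaline and adrenaline, glycine, opioid peptides, histamine, ATP or adenosine. The rule found 48 genes of 7229 in the table, chosen by name and not by any measured value. RNA came from the dorsal raphe nucleus of 10 females of the cynomolgus macaque (Macaca fascicularis), all of them daughters whose mother and father the labels name, and the labels name no treatment, age or second group. The table counts, for each gene and daughter, the reads assigned to the allele labelled maternal and the allele labelled paternal. The measure throughout is the paternal share, meaning what percent of the allelic reads of a gene in 1 daughter lie in the paternal column, so that 50% means equal alleles. They are called daughters 1 to 10 here, following label order. Daughters 1 to 6 carry the title prefix 10203 and daughters 7 to 10 the prefix 10480.

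Fast transmission in the brain runs through receptors that are themselves ion channels, built from several subunits encoded by separate genes: GABA-A and glycine receptors pass chloride and mostly inhibit, while AMPA, kainate and NMDA glutamate receptors, nicotinic acetylcholine receptors and P2X receptors pass cations and excite. Slower transmission runs through receptors coupled to G proteins, such as GABA-B, metabotropic glutamate, muscarinic, opioid, P2Y and most serotonin receptors. The dorsal raphe holds most serotonin neurons that project to the forebrain, together with GABA and glutamate neurons, and GABA, glutamate and noradrenaline inputs set the firing of its serotonin cells. In a female, a gene on an autosome is usually read from both copies, whereas a gene on X is read from 1 copy in each cell.

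The allelic reads of all genes numbered 30090 to 999471 per daughter, and those of the receptor genes 54 in daughter 1 to 3408 in daughter 6. A count depends on how many positions differ between an animal's 2 alleles as well as on expression, so a gene with few reads is not thereby a gene with little RNA, and no levels are compared between genes. Of 7 listed serotonin neuron markers, 5 had a row. TPH2, the enzyme that starts brain serotonin synthesis, had 41 to 5409 allelic reads per daughter in the 7 daughters where it was measured. DDC was measured in 5 daughters, SLC18A2 in 3 and SLC6A4 in 2. Rows were also present for 4 of 4 noradrenaline and dopamine, 2 of 3 GABA and 2 of 3 glutamate neuron markers. The same held for 4 of 5 endothelial markers. Astrocyte, oligodendrocyte, microglia and cerebellar markers had no row and were not analysed here. A missing row does not show that the RNA was absent. Imprinted genes bear on the column labels. DLK1 and MEST, known as expressed from the paternal copy, had paternal shares of 1.74% of 115 reads and 3.09% of 162 reads from daughter 6, against 98.6% and 91.3% in daughter 3. GRB10 or COPG2 placed daughters 2, 6, 7, 8 and 9 on the side opposite to daughters 3, 4, 5 and 10 or to those of them that were measured. GRB10 shares were 2.97% to 9.16% in daughters 2, 6 and 9, against 96.0% to 98.2% in daughters 3, 4, 5 and 10. Daughters 7 and 8 were placed by COPG2 alone and less completely, at 76.1% of 46 reads and 78% of 82. COPG2 had 22.4% and 23.5% in daughters 3 and 5. The columns labelled maternal and paternal may therefore not name the same parent in every daughter, and no such gene placed daughter 1. The distance of a share from 50% and the count of unequal measurements do not depend on which column is which parent. Mean shares, dispersions and the side on which different daughters lie do depend on it. They are given as deposited. For some genes and counts they are also given with the 2 columns of daughters 2, 6, 7, 8 and 9 exchanged. That step was chosen after the data were seen. Where only the deposited value is given, the exchanged value can differ. The mean share of CHRNA7, for example, went from 56.7% to 44.7%, and that of P2RX5 from 47.6% to 55.6%.

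Of the 48 receptor genes, 35 had 10 or more reads in at least 1 daughter, and 20 had them in 5 or more. No receptor gene reached 10 reads in all 10 daughters, and the widest coverage was 9 daughters, for GRIN1 and P2RX6. The other 13 genes never exceeded 7 reads in a daughter and are given no share. They were the nicotinic subunit genes CHRNA1, CHRNA3, CHRNA5, CHRNA6, CHRNA9 and CHRNB4, the muscarinic receptor gene CHRM1, the adrenoceptor gene ADRA1D, the glycine receptor gene GLRA4, and P2RX1, P2RX2, P2RX3 and P2RY6. Of the 18 families searched, 14 had a row. Delta glutamate receptors, beta adrenoceptors, histamine receptors and adenosine receptors had none and were not analysed here. In all, 167 measurements of a receptor gene in a daughter rested on 10 or more reads. The minimum is not a gap in the data: 8 measurements had 8 or 9 reads and 9 had 10 or 11.

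On average over genes or daughters, receptor transcripts were read about equally from both alleles. The pooled paternal share of all receptor reads was 49.8% ± 1.80 (SD, n = 10), from 47.0% of 1647 reads from daughter 3 to 52.3% of 1502 from daughter 2. Its 95% Wilson interval excluded 50% in daughter 3 (44.6 to 49.4) and daughter 10 (45 to 49.8) and in no other daughter. These 2 daughters also had the lowest paternal shares over all genes of the table, at 49.33% and 49.26%. These intervals, and all those that follow, cover counting error only and treat each read as independent. Reads are not independent molecules, so the intervals can be too narrow. Over the 20 genes with 5 or more daughters, mean shares ran from 43.6% for GABBR2 to 58.4% for CHRNA4, and 17 of the 20 lay between 45% and 55%. In the whole table, 2305 of 2981 genes of the same coverage did. With the columns of the 5 daughters exchanged, the pooled share was 49.5% ± 1.74 (SD, n = 10). Mean shares then ran from 37.5% for P2RY11 to 56.4% for P2RX6, with 15 of the 20 genes and 2209 of the 2981 between 45% and 55%. GABBR2 then had a mean of 55% and CHRNA4 one of 48.3%, so which genes stand at the ends depends on the column labels.

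**Figure D1:**
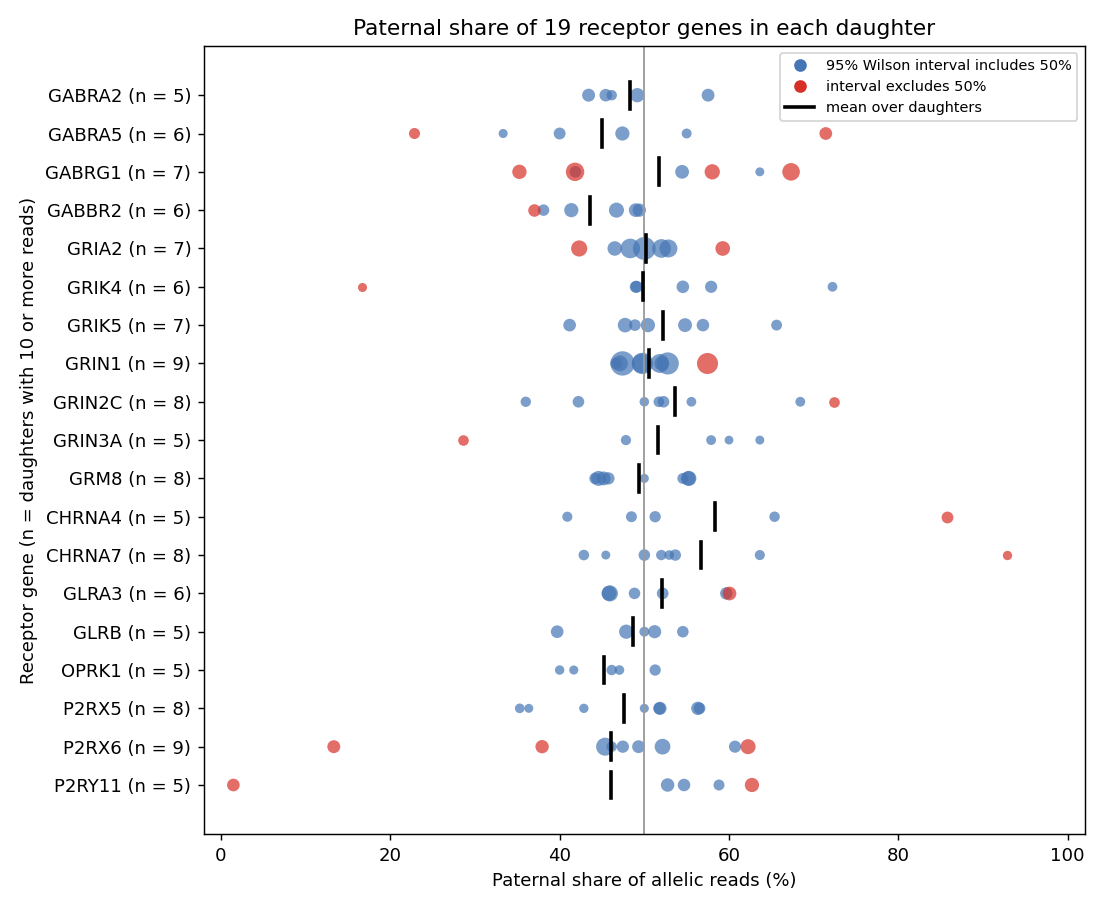
Paternal share (horizontal axis, percent of allelic reads) of 19 receptor genes that reached 10 reads in at least 5 daughters, 1 point per daughter with area growing with read number; red points have a 95% Wilson interval that excludes 50% and black bars are means over daughters. As deposited, means stay between 43.6% and 58.4%, while single daughters of P2RY11, P2RX6, CHRNA4 and CHRNA7 lie far from their gene's other points.

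The maternal and paternal columns were compared for each gene over daughters, to ask whether a receptor was read more from 1 parent's allele. None was called. In edgeR's quasi-likelihood fit with the daughter as block, 0 of 20 receptor genes passed a Benjamini-Hochberg adjusted p of 0.05 over all 2981 genes tested, where percent called was 0 for the whole table as well. At an unadjusted p under 0.05 edgeR gave 0 receptor genes, beside 93 of 2981 genes, and DESeq2 gave 0, beside 62. DESeq2 called 0 too. The median size of the log2 difference between columns was 0.11 in receptor genes and 0.14 in all genes. Daughters without reads of a gene enter this fit with 0 in both columns and add nothing to its difference. Without daughters 2, 6, 7, 8 and 9, a fit chosen after the data were seen, 0 of 16 receptor genes passed, while 2 of 2931 genes did. These were GRB10 and DLK1, and since the daughters left out were chosen by such imprinted genes, their calls follow from that choice. With the columns of these 5 daughters exchanged, 0 of 20 receptor genes and 4 of 2981 genes passed in the same fit. At an unadjusted p under 0.05 it gave 0 receptor genes, beside 128 of 2981 genes. The 4 that passed were GRB10, DLK1 and COPG2, which served to choose the daughters, and GNAS, all named after their values were seen.

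As deposited, the smallest p belonged to GABBR2, a subunit of the GABA-B receptor, whose share in the paternal column was below 50% in 6 of 6 daughters. Its lowest share was 36.9% of 65 reads from daughter 8, its median 44.0% and its highest 49.4% of 85 reads from daughter 2, with a mean of 43.6% ± 5.52 (SD, n = 6). The log2 difference of paternal to maternal reads was -0.35 ± 0.16 (SE, edgeR unadjusted p = 0.0533, adjusted p = 1). Of the 6 daughters, 4 are among those with doubtful columns, and with these exchanged GABBR2 was below 50% in 2 of 6 and its difference was 0.26 ± 0.17 (SE, edgeR unadjusted p = 0.171, adjusted p = 1). Among the next smallest p-values were those of CHRNA4, CHRNA7 and P2RX6, none past the threshold. Their log2 differences were 0.52 ± 0.40 for CHRNA4, 0.38 ± 0.30 for CHRNA7 and -0.22 ± 0.27 for P2RX6 (SE, edgeR adjusted p = 1 in each case). In each of these 3 genes daughters lay on both sides of 50%. With the columns exchanged, these differences were -0.33 ± 0.42, -0.28 ± 0.30 and 0.40 ± 0.25 (SE). The smallest p then belonged to GRIN1, below 50% in 8 of 9 daughters, with a difference of -0.14 ± 0.07 (SE, edgeR unadjusted p = 0.0553). GABRA5 came next with -0.62 ± 0.30 (SE, edgeR unadjusted p = 0.068). Neither passed the threshold.

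The parental difference was compared between the title prefixes, treated as a batch because, parents aside, the labels give nothing else that divides the daughters. It differed for 0 of 20 receptor genes and for 1 of 2981 genes, CDIPT, named after its value was seen, a percent called of 0.0335 (edgeR interaction, adjusted p of 0.05). At an unadjusted p under 0.05 the receptor genes numbered 0 with edgeR and 0 with DESeq2, beside 106 and 71 of 2981 genes. As deposited, the largest differences among receptor genes were 1.19 ± 0.59 for the NMDA subunit GRIN3A and 1.17 ± 0.55 for the nicotinic subunit CHRNA7, on the log2 scale (SE, prefix 10480 minus prefix 10203, edgeR adjusted p = 1 for both). Daughters 7, 8 and 9 of prefix 10480 and 2 and 6 of prefix 10203 have doubtful columns. With the columns exchanged, 0 of 20 receptor genes and 1 of 2981 genes passed. At an unadjusted p under 0.05 edgeR then gave 2 of 20 receptor genes, beside 122 of 2981 genes. The 2 receptor genes were GABBR2 (0.72 ± 0.28) and GRIN2C (-0.96 ± 0.42), with edgeR unadjusted p of 0.0307 and 0.0404. GRIN3A then had -0.76 ± 0.64 and CHRNA7 -0.50 ± 0.64 (SE).

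Single measurements were unequal in some daughters, no more often than in the table at large. Of 167 receptor measurements, 27 had a 95% Wilson interval that excluded 50%, which is 16.2%, beside a percent called of 20.1 over all 27887 measurements. The paternal allele was the higher in 12 of them and the maternal in 15, or 7.19% and 8.98%, against 9.5 and 10.6 percent called in all genes. Among autosomal measurements the share was 14.5% of 159 in receptor genes and 18.8 percent of 24684 in all genes. The proportion grew with read number in both, since more reads resolve smaller differences. It was 2 of 37 with 10 to 19 reads, 7 of 52 with 20 to 49, 7 of 33 with 50 to 99 and 11 of 45 with 100 or more, beside 11.6, 16, 21 and 28.2 percent called in all genes. Receptor genes lay below the table in 3 of these 4 classes and level with it in the third. Nearly complete use of 1 allele, 90% or more of 20 or more reads, was seen in 1 of 130 receptor measurements (0.769%), beside 1.6 percent called. It was P2RY11 in daughter 4.

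**Figure D2:**
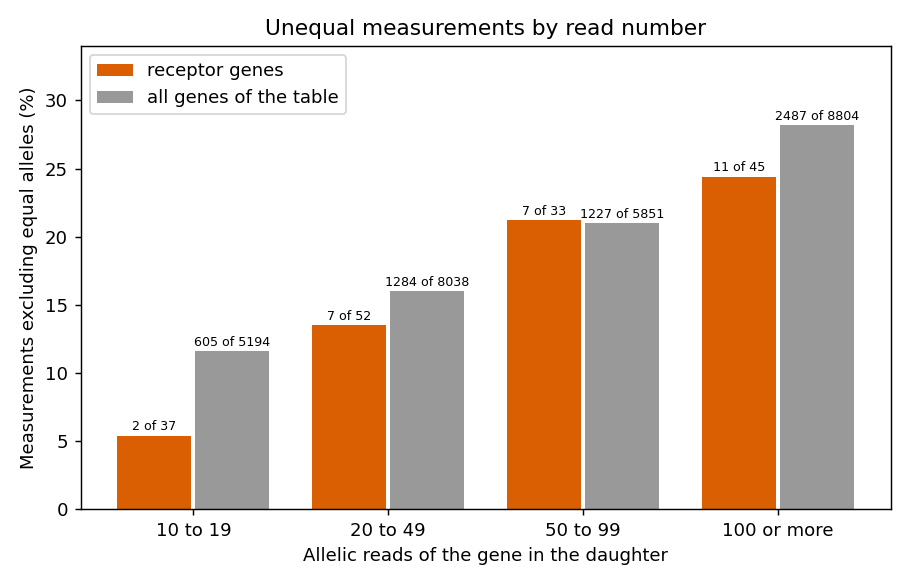
Percent of measurements of a gene in a daughter whose 95% Wilson interval excludes a 50% paternal share (vertical axis), by the number of allelic reads (horizontal axis), for receptor genes and for all genes of the table, with counts above the bars. Both rise with read number, from 2 of 37 to 11 of 45 in receptor genes.

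Typical autosomal receptor measurements lay 5.81 percentage points from 50%, the median over 159 measurements of 31 genes, against 6 over 24684 measurements of 5214 autosomal genes. The median was 4.55 points within prefix 10203 and 7.96 within prefix 10480. Read numbers move with that difference, since the daughters of prefix 10480 had 273992 to 498639 allelic reads and those of prefix 10203, daughter 1 aside, 547158 to 999471. The part of depth in it was not tested. For the spread of a gene between daughters, a dispersion was computed as the Pearson chi-square of its shares around the pooled share divided by its degrees of freedom, so that 1 is what counting alone would give. The median dispersion was 1.64 over the 20 receptor genes and 2.01 over 2981 genes. It was above 2 in 8 of 20 receptor genes, beside 50.3 percent called in the table. The 8 were P2RY11, GABRG1, P2RX6, GABRA5, CHRNA4, GRIN1, GRIA2 and GRIK4. With the most influential daughter of each gene left out, 3 stayed above 2: GABRG1, GABRA5 and P2RX6. Leaving out daughter 8 throughout gave 5 genes of 18. With the columns of the 5 daughters exchanged, the dispersion was above 2 in 6 of 20 receptor genes, beside 48.4% of all 2981, and GRIN1 (1.17) and GRIA2 (just under 2) were no longer among them.

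GABA-A receptor genes, the main inhibitory channels of the brain, held 10 of the 27 unequal measurements, out of 30 measurements of 8 genes, beside 20.1 percent called over all genes. Of those 10, 4 were X-linked and are described further on. The other 6 were among 24 autosomal measurements, or 25%, beside 18.8 percent called over autosomal genes. GABRG1 encodes the gamma 1 subunit and was the most unequal autosomal receptor gene by number of daughters. Its paternal share was 63.6% of 11 reads from daughter 1, 41.8% of 373 from daughter 3, 41.9% of 43 from daughter 4, 67.3% of 303 from daughter 5, 54.5% of 101 from daughter 6, 58.0% of 162 from daughter 8 and 35.2% of 122 from daughter 10. The interval lay below 50% in daughters 3 (36.9 to 46.9) and 10 (27.3 to 44.1) and above it in daughters 5 (61.9 to 72.4) and 8 (50.3 to 65.4). Daughters 4 and 5 have the same father, and their GABRG1 shares differed by 25.5 points, with intervals of 28.4 to 56.7 and 61.9 to 72.4 that do not overlap. The mean was 51.8% ± 12.2 (SD, n = 7) with a dispersion of 10.4, and 4.46 without daughter 5. Exchanged, daughter 8 had 42.0% and lay on the side of daughters 3 and 10, and the dispersion was 10.5.

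GABRA2, the alpha 2 subunit gene, belongs to the same gene cluster as GABRG1 and was close to equal. Its shares were 45.5% of 66 reads from daughter 2, 57.5% of 73 from daughter 4, 49.2% of 120 from daughter 6, 43.4% of 76 from daughter 9 and 46.2% of 26 from daughter 10. Every interval included 50%, and the dispersion was 0.871. In the 3 daughters where both genes were measured, they lay on the same side of 50% in daughter 10 and on opposite sides in daughters 4 and 6. The neighbours therefore did not share a side throughout, although in each of the 3 daughters their intervals overlapped.

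GABRA5, the alpha 5 subunit gene, had a paternal share of 47.4% of 116 reads from daughter 3, 22.9% of 35 from daughter 4, 40.0% of 50 from daughter 5, 71.4% of 70 from daughter 6, 33.3% of 12 from daughter 7 and 55% of 20 from daughter 8. Daughter 4 (interval 12.1 to 39.0) and daughter 6 (60.0 to 80.7) were unequal towards opposite columns as deposited, and the dispersion was 5.37, or 2.12 without daughter 6. Exchanged, daughter 6 had 28.6%, on the side of daughter 4, and the dispersion was 2.91.

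Genes near GABRA5 were then read in the same daughters, a step added after the receptor values were seen, with gene order taken from the reference gene table. In daughter 6, where GABRA5 was 71.4% paternal, the pigment gene OCA2 had 76.1% of 67 reads (64.7 to 84.7), the lipid flippase gene ATP10A 64.8% of 250 (58.7 to 70.5) and the ubiquitin ligase gene HERC2 53.2% of 2221 (51.1 to 55.3). In daughter 4, where GABRA5 was 22.9%, HERC2 had 37.4% of 1344 reads (34.8 to 40.0), ATP10A 51.2% of 129 and OCA2 59.3% of 27. These 3 genes all lay on the side of GABRA5 in daughter 6, and HERC2 alone of the 3 in daughter 4. In daughters 5 and 7 HERC2 lay opposite to GABRA5, which was at 40.0% and 33.3%. HERC2 had 62.6% of 1159 reads from daughter 5 (59.8 to 65.4) and 80.7% of 114 from daughter 7 (72.5 to 86.9). In daughters 3 and 8 HERC2 lay on the side of GABRA5, with 35.6% of 1061 reads (32.8 to 38.6) and 76.5% of 136 (68.7 to 82.8). ATP10A lay on the side of GABRA5 in daughters 5 (42.4% of 151) and 7 (39.0% of 41). ATP10A lay opposite in daughter 3 (50.5% of 99), as OCA2 did in daughter 7 (64.0% of 25). GABRD, the delta subunit gene, had 62.5% of 32 reads from daughter 4 and no other measurement.

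**Figure D3:**
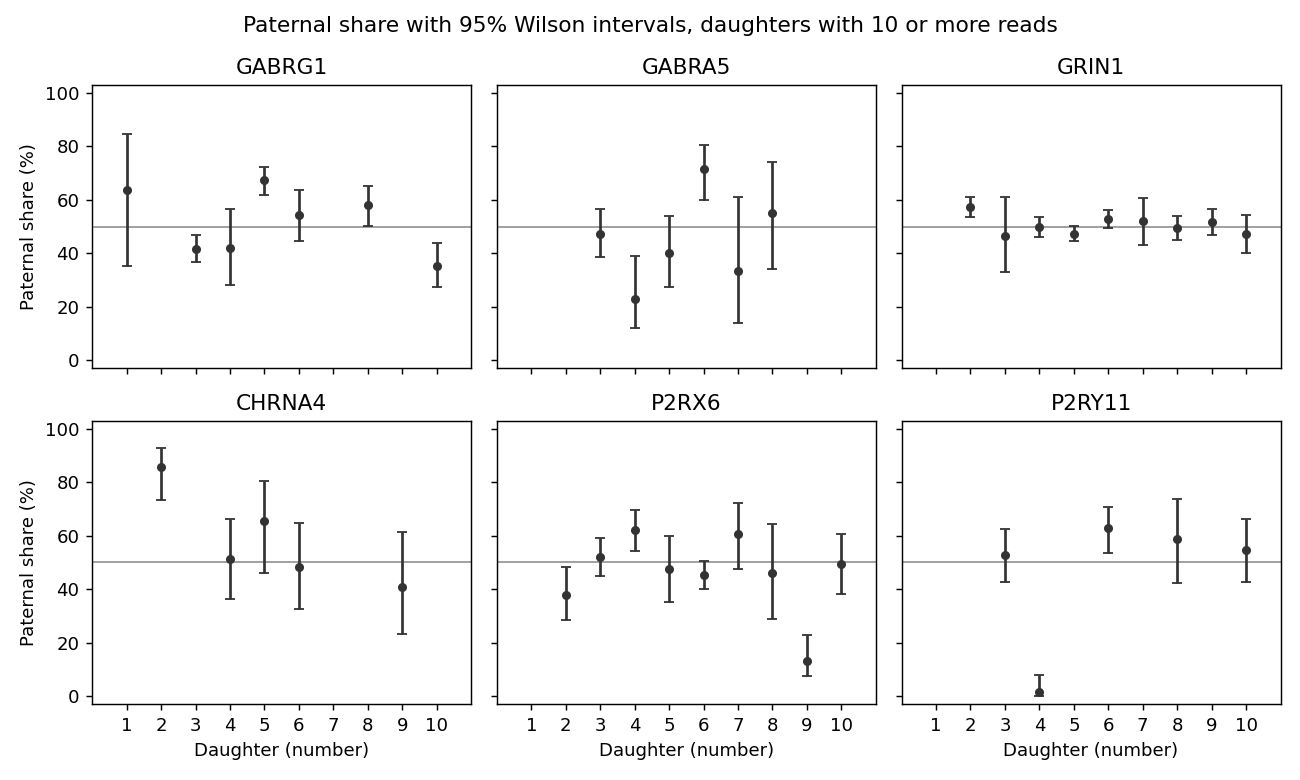
Paternal share (vertical axis, percent) with its 95% Wilson interval in each daughter with 10 or more reads (horizontal axis) for GABRG1, GABRA5, GRIN1, CHRNA4, P2RX6 and P2RY11. GRIN1 stays between 46.7% and 57.4%, GABRG1 and GABRA5 have daughters on both sides of 50%, and CHRNA4, P2RX6 and P2RY11 each have 1 daughter far from the rest.

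Ionotropic glutamate receptor genes carried most of the reads and were close to equal. GRIN1 encodes the subunit that every NMDA receptor contains, and its 4606 reads were the most of any receptor gene. Its share was 57.4% of 655 reads from daughter 2, 46.7% of 45 from daughter 3, 49.8% of 691 from daughter 4, 47.4% of 1208 from daughter 5, 52.8% of 811 from daughter 6, 52.0% of 123 from daughter 7, 49.7% of 471 from daughter 8, 51.8% of 411 from daughter 9 and 47.1% of 191 from daughter 10. Only in daughter 2 did the interval exclude 50% (53.6 to 61.1), and the mean was 50.5% ± 3.42 (SD, n = 9). The dispersion of 2.54 fell to 1.03 without daughter 2, and to 1.17 with the columns exchanged. Exchanged, the mean was 47.5% ± 2.20 (SD, n = 9), with 8 of 9 daughters below 50%.

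The other NMDA receptor genes rested on fewer reads. GRIN2C, a regulatory subunit gene, ranged from 36.0% of 25 reads from daughter 6 through a median of 52.0% to 72.4% of 29 from daughter 8 (54.3 to 85.3), with a mean of 53.6% ± 12.2 (SD, n = 8). GRIN3A had 47.8% of 23 reads from daughter 3, 28.6% of 28 from daughter 6 (15.3 to 47.1), 57.9% of 19 from daughter 8, 63.6% of 11 from daughter 9 and 60.0% of 10 from daughter 10. Daughter 6 alone of the 5 had an interval excluding 50%. Exchanged, daughters 6, 8 and 9 had GRIN3A shares of 71.4%, 42.1% and 36.4%. As deposited, GRIN2A was 30.6% paternal in 62 reads of daughter 6 (20.6 to 43.0) and 42.9% in 35 reads of daughter 10, who has the same mother. Exchanged, daughter 6 had 69.4% for GRIN2A, on the side opposite to daughter 10. GRIN2D had 48.0% of 25 and 68.8% of 16 reads in daughters 4 and 8. GRIN2C and GRIN3A each overlap another protein-coding gene in the reference gene table (TMEM104 and PPP3R2), and the sources used here do not say whether reads were assigned by strand.

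GRIA2, the AMPA receptor subunit that keeps these channels nearly impermeable to calcium, had 46.5% of 129 reads from daughter 2, 52.9% of 333 from daughter 4, 48.3% of 482 from daughter 5, 50% of 922 from daughter 6, 42.3% of 208 from daughter 8, 59.3% of 135 from daughter 9 and 52.0% of 394 from daughter 10. As deposited, the maternal allele was the higher in daughter 8 (35.8 to 49.1) and the paternal in daughter 9 (50.8 to 67.2). Exchanged, daughter 8 had 57.7% and daughter 9 had 40.7%, so both sides reversed. The mean as deposited was 50.2% ± 5.35 (SD, n = 7). Its dispersion was 2.07, or 1.40 without daughter 8. GRIA4, another AMPA subunit gene, had 55.7% of 348 reads from daughter 4 (50.5 to 60.9), 53.4% of 326 from daughter 5 and 50.6% of 154 from daughter 10. All 3 of its shares were above 50%, and the interval excluded 50% in the first.

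Kainate and metabotropic glutamate receptor genes gave 1 interval excluding 50% in 25 measurements. That was GRIK4 in daughter 7, with 16.7% of 12 reads (4.70 to 44.8). GRIK4 had 54.5% of 66 reads from daughter 4, 57.9% of 57 from daughter 5, 49% of 49 from daughter 6, 72.2% of 18 from daughter 8 and 49.1% of 55 from daughter 10. The 2 shares farthest apart, in daughters 7 and 8 with the same father, were those with the fewest reads. GRIK5 ranged from 41.2% of 68 reads from daughter 4 through a median of 50.4% to 65.6% of 32 from daughter 9, with a mean of 52.2% ± 7.80 (SD, n = 7), and overlaps ZNF574 in the reference gene table. GRIK1 ranged from 39.5% to 58.8% in 4 daughters. GRM8, an inhibitory receptor of presynaptic terminals, ranged from 44.2% of 43 reads from daughter 6 through a median of 47.9% to 55.3% of 152 from daughter 2. Its mean was 49.3% ± 5.01 (SD, n = 8) at a dispersion of 0.997, the value counting alone would give.

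Of the nicotinic receptor genes, CHRNA4 and CHRNA7 encode subunits of the main brain forms of the receptor. CHRNA4 had 85.7% of 49 reads from daughter 2 (73.3 to 92.9), 51.3% of 39 from daughter 4, 65.4% of 26 from daughter 5, 48.5% of 33 from daughter 6 and 40.9% of 22 from daughter 9. The interval of daughter 2 overlapped that of daughter 5 and lay above those of the other 3. Without daughter 2 the mean moved from 58.4% ± 17.7 (SD, n = 5) to 51.5% ± 10.2 (SD, n = 4), and the dispersion from 5.08 to 1.04. Exchanged, daughter 2 had 14.3%, and the dispersion was 6.51. Near it in daughter 2, the collagen gene COL20A1 had 81.5% of 27 reads (63.3 to 91.8), while ARFGAP1 had 46.7% of 452. CHRNA7 had 92.9% of 14 reads from daughter 8 (68.5 to 98.7) and 42.9% to 63.6% in the 7 other daughters, all with intervals including 50%. Its mean was 56.7% ± 15.9 (SD, n = 8), or 51.5% ± 6.68 without daughter 8, and it overlaps an unnamed coding gene in the reference gene table. CHRNA2 had 53.3% of 15, 44.4% of 18 and 20% of 10 reads in daughters 5, 6 and 8.

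Serotonin receptor genes, of most interest in a serotonin nucleus, had 3 rows and few reads. HTR3A encodes the serotonin-gated ion channel, and HTR5A and HTR7 encode receptors coupled to G proteins. HTR3A had 72.2% of 18 reads from daughter 2 and 37.1% of 35 from daughter 4. HTR5A had 60.0% of 35 reads from daughter 6, 40.7% of 27 from daughter 9 and 70.0% of 10 from daughter 10. HTR7 had 46.7% of 15 reads from daughter 4 and 36.0% of 25 from daughter 5. All 7 intervals included 50%, and they were wide, the narrowest being that of HTR3A in daughter 4 at 23.2 to 53.7.

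Glycine receptor genes were near balance. GLRA3, an alpha subunit gene, had 48.8% of 43 reads from daughter 2, 60.0% of 100 from daughter 3 (50.2 to 69.1), 45.8% of 144 from daughter 5, 45.9% of 209 from daughter 6, 52.2% of 46 from daughter 7 and 59.7% of 62 from daughter 9, with a mean of 52.1% ± 6.45 (SD, n = 6). GLRB, the beta subunit gene that anchors the receptor at synapses, ranged from 39.7% of 68 reads from daughter 5 through 50% to 54.5% of 44 from daughter 6, with a mean of 48.7% ± 5.56 (SD, n = 5). Every interval of GLRB included 50%. Of the opioid receptor genes, OPRK1 of the kappa receptor had a mean of 45.2% ± 4.5 (SD, n = 5), from 40.0% to 51.3%. OPRL1 of the nociceptin receptor had 28.6% of 14, 50% of 24, 33.3% of 24 and 31.6% of 19 reads in daughters 3, 4, 6 and 10. None of the 9 opioid receptor intervals excluded 50%, although none of the OPRL1 shares lay above it as deposited.

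Purinergic receptor genes, which respond to extracellular nucleotides, held the 2 most extreme measurements with 20 or more reads. P2RY11, a G protein-coupled receptor for ATP, had 1 paternal read of 68 from daughter 4, a share of 1.47% (0.260 to 7.87). In the other daughters it had 52.7% of 91 reads from daughter 3, 62.7% of 118 from daughter 6 (53.7 to 70.9), 58.8% of 34 from daughter 8 and 54.7% of 64 from daughter 10. Without daughter 4 the mean moved from 46.1% ± 25.2 (SD, n = 5) to 57.2% ± 4.44 (SD, n = 4), and the dispersion from 18.2 to 0.795. Exchanged, daughters 6 and 8 had 37.3% and 41.2%, and the dispersion was 13.7. PPAN, the adjacent gene, had 42.3% of 26 reads from daughter 4 (25.5 to 61.1), an interval that does not overlap that of P2RY11. In the reference gene table P2RY11 also overlaps EIF3G.

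P2RX6, an ATP-gated channel subunit, had 37.9% of 87 reads from daughter 2 (28.4 to 48.4), 52.2% of 186 from daughter 3, 62.3% of 151 from daughter 4 (54.3 to 69.6), 47.5% of 59 from daughter 5, 45.4% of 335 from daughter 6, 60.7% of 56 from daughter 7, 46.2% of 26 from daughter 8, 13.3% of 75 from daughter 9 (7.41 to 22.8) and 49.3% of 73 from daughter 10. The interval of daughter 9 lay below those of all other daughters. Without her the mean moved from 46.1% ± 14.4 (SD, n = 9) to 50.2% ± 8.09 (SD, n = 8), and the dispersion from 7.22 to 2.89. Daughters 2 and 4 lay on opposite sides as deposited, whereas with the columns exchanged daughter 2 had 62.1%, beside the 62.3% of daughter 4, daughter 9 had 86.7% and the dispersion was 5.39. Neighbouring genes in daughter 9 were nearer to balance, with 38.3% of 81 reads (28.5 to 49.2) for AIFM3, on the side of P2RX6, 53.1% of 49 for LZTR1 and 54.5% of 33 for THAP7. P2RX6 overlaps SLC7A4 in the reference gene table. P2RX5 shares lay between 35.3% and 56.5%, averaging 47.6% ± 8.43 (SD, n = 8) at a dispersion of 0.642, and P2RX4 from 56.3% to 63.6% in 3 daughters. No interval of P2RX5 or P2RX4 excluded 50%.

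The X-linked receptor genes lay farther from balance than the autosomal ones, on the side taken by other X-linked genes of the same daughter. The reference gene table placed GABRE, GABRA3, GABRQ and GLRA2 on X, and GLRA4 was not matched. GABRQ, the theta subunit gene of GABA-A receptors, had 24.0% of 96 reads from daughter 2 (16.5 to 33.4) and 21.7% of 46 from daughter 3 (12.3 to 35.6). GABRA3, the alpha 3 subunit gene, had 18.4% of 38 reads from daughter 10 (9.22 to 33.4). GABRE, the epsilon subunit gene, had 22.7% of 22 reads from daughter 5 (10.1 to 43.4), 30.0% of 10 from daughter 6 and 38.9% of 18 from daughter 10. GLRA2, a glycine receptor alpha subunit gene, had 57.1% of 28 reads from daughter 7 and 57.1% of 84 from daughter 8. These 2 daughters have the same father, and both intervals of GLRA2 included 50%.

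The median paternal share of the other X-linked genes was 39.1% for daughter 2, 27.9% for daughter 3, 27.6% for daughter 5, 44.5% for daughter 6, 57.5% for daughter 7, 52.8% for daughter 8 and 29.6% for daughter 10. All 8 X-linked receptor measurements fell on the same side of 50% as that median. With fewer than 10 reads, GABRE had 50% of 8 reads from daughter 4 and 28.6% of 7 from daughter 8, where the medians were 73.6% and 52.8%. The interval excluded 50% in 4 of 8 X-linked receptor measurements (50%), beside 53 percent called over 837 X-linked measurements of all genes, and their median distance from 50% was 23.0 points beside 16.7. The 4 of them within prefix 10480 had a median distance of 9.13 points and those within prefix 10203 one of 26.7. In daughter 10 the neighbours GABRE and GABRA3 both lay below 50%, as the median there did. X-linked receptor genes thus accounted for 4 of the 27 unequal receptor measurements while making up 8 of 167.

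**Figure D4:**
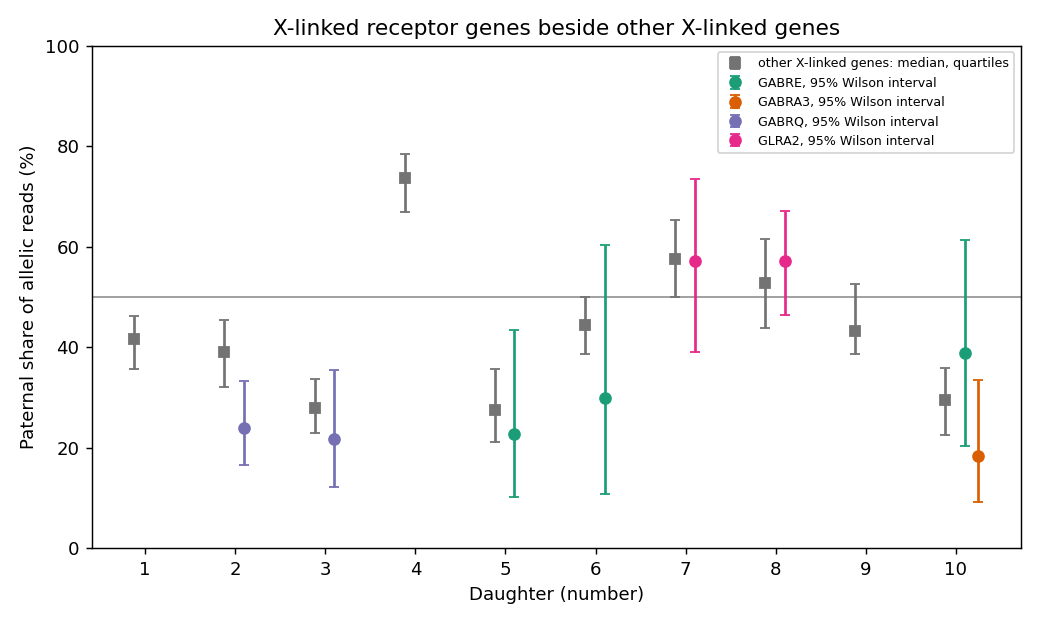
Paternal share (vertical axis, percent) of the X-linked receptor genes with 10 or more reads, with 95% Wilson intervals, beside the median and quartiles of all other X-linked genes in each daughter (grey squares, horizontal axis: daughter). GABRQ, GABRA3 and GABRE lie below 50% in daughters 2, 3, 5, 6 and 10 and GLRA2 at 57.1% in daughters 7 and 8, on the side of the grey median each time.

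Daughters that share a parent were set beside those that do not, as a description. The shares of a receptor gene differed by a median of 8.44 points, the middle of the medians of 4 pairs sharing a parent in which a receptor gene was measured in both, and by 8.22 points in 39 other pairs. Pair medians ran from 5.61 to 11.8 in the former and from 3.69 to 21.7 in the latter, and the ranges overlapped. The 5.61 rests on 1 gene in daughters 1 and 8. The 3.69 rests on 1 gene in daughters 1 and 5, and the 21.7 on 2 genes in daughters 1 and 10. Daughters 6 and 10, with the same mother, shared 19 measured receptor genes with a median difference of 6.22 points. Daughters 4 and 5, with the same father, shared 15 with a median of 10.7. Genes unequal in both daughters of a pair were also counted, over 4 pairs sharing a parent and 39 others. These counts do not show whether relatives share unequal genes, since far fewer pairs share a parent. No such count was made over all genes. A gene unequal in several daughters, such as GABRG1 in daughters 3, 5, 8 and 10, enters once for each pair. In no pair with a shared parent did a receptor gene have an interval excluding 50% in both daughters. Among the other pairs this occurred 13 times, 4 of them towards the same column: GABRQ in daughters 2 and 3, P2RX6 in daughters 2 and 9, and GABRG1 in daughters 3 and 10 and in daughters 5 and 8. With the columns exchanged, 8 of the 13 were towards the same column, among them GABRA5 in daughters 4 and 6, P2RX6 in daughters 2 and 4 and P2RY11 in daughters 4 and 6, and GABRQ in daughters 2 and 3 was not. The middle of the pair medians was then 11.2 points in the 4 pairs sharing a parent, from 10.1 to 21.7, and 7.58 points in the 39 others, from 2.99 to 21.7. In the pairs sharing a parent, the 21.7 was that of daughters 1 and 8, with 1 gene. Daughters 6 and 10 then differed by a median of 10.1 points.

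Finally, the level of each allele was followed across daughters as CPM, its count scaled to a common total within that column. Both alleles of a gene come from 1 library and share its informative positions, so some common movement is built into the measure. The receptor genes with enough coverage numbered 6, each reaching 10 reads in at least 8 daughters, and in all 6 of them Pearson's r between maternal and paternal CPM was above 0. It passed in 3 of 6, beside 74.2 percent called over 1108 genes, with permutation p-values adjusted by Benjamini-Hochberg over all 1108. GRIN1 had r = 0.96 (n = 9, exact permutation p = 0.000124, adjusted 0.000886) and Spearman's rho = 0.92 (exact permutation p = 0.00131, adjusted 0.00553). Its maternal CPM ran from 72.9 in daughter 3 to 1385 in daughter 5, and its paternal CPM from 65.5 in daughter 3 to 1368 in daughter 2. GRM8 had r = 0.95 (n = 8, exact permutation p = 0.000595, adjusted 0.00216) and rho = 0.90 (exact permutation p = 0.00456, adjusted 0.0119). P2RX5 had r = 0.98 (n = 8, exact permutation p = 0.00127, adjusted 0.00365) and rho = 0.86 (exact permutation p = 0.0107, adjusted 0.0224).

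Once the 2 daughters whose maternal value lay farthest from the median were left out, r was 0.95 for GRIN1, 0.91 for GRM8 and 0.70 for P2RX5, whose daughter 8 stood apart at 223.5 maternal and 241.7 paternal CPM. The other 3 genes did not pass. They were CHRNA7 (r = 0.51, rho = 0.31, n = 8, exact permutation p = 0.194 and 0.462, adjusted 0.219 and 0.492), GRIN2C (r = 0.48, rho = 0.45, n = 8, exact permutation p = 0.188 and 0.268, adjusted 0.213 and 0.299) and P2RX6 (r = 0.47, rho = 0.42, n = 9, exact permutation p = 0.200 and 0.270, adjusted 0.225 and 0.301). Without the 2 farthest daughters their r was 0.68, 0.83 and 0.77. In P2RX6 daughter 9 had 310.3 maternal and 48.0 paternal CPM, and without her the gene passed. With the columns exchanged GRIN1, GRM8 and P2RX5 passed again, and no other receptor gene did. Within a title prefix no receptor gene was measured in 6 daughters, so no value within a prefix can be given.

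**Figure D5:**
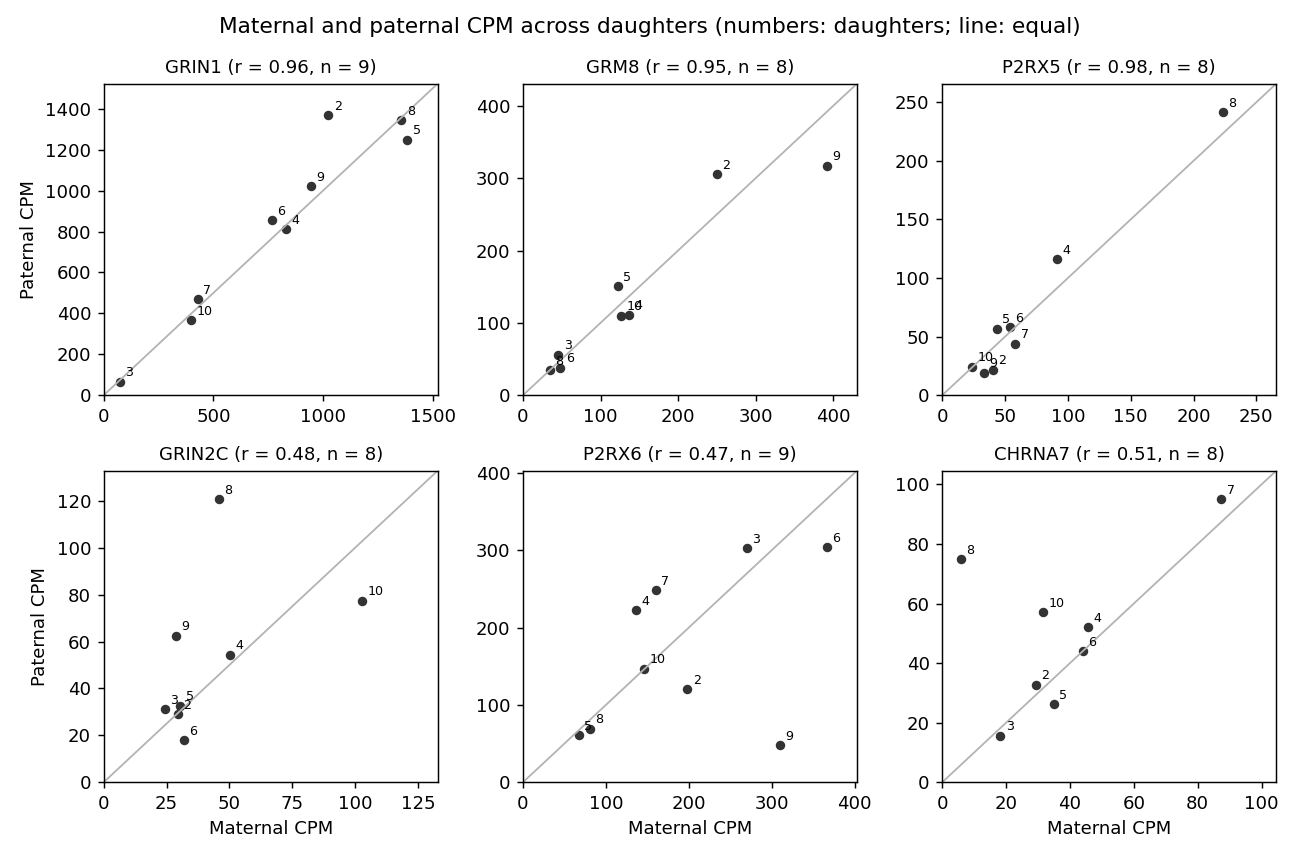
Maternal CPM (horizontal axis) against paternal CPM (vertical axis) for the 6 receptor genes that reached 10 reads in at least 8 daughters, 1 numbered point per daughter, with the line of equal values. GRIN1, GRM8 and P2RX5 follow the line (r of 0.96, 0.95 and 0.98), while daughter 9 in P2RX6 and daughter 8 in CHRNA7 and GRIN2C lie off it.

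Other genes of the same pathways were read from lists of receptor partners. Of 49 genes for receptor anchoring, auxiliary and trafficking proteins, 21 were in the table, 20 were measured and 10 were tested, with 0 called in either direction by edgeR. Their 90 measurements had a median paternal share of 49.2%, a median distance of 7.89 points from 50%, and an interval excluding 50% in 13 (14.4%). Of 45 other transmitter and neuropeptide receptors, such as those for dopamine and tachykinins, 16 were in the table, 6 were measured and 2 were tested, with 0 called. Their 20 measurements had a median share of 49% and 3 intervals excluding 50%. Both lists lay under the 20.1 percent called over all genes.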

How the data were processed

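Ribosomal RNA was depleted from total RNA, and stranded libraries were read from both ends for 101 cycles, per the labels' protocols. The submitters' processing notes name Novoalign as aligner. The authors deposited raw read counts, 2 columns a daughter, 1 for each parental allele, with macFas5 as build, per the file headers. The sources used here do not state the phasing, counting or filters. Receptor genes and lists were chosen with earlier results of these data known.

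The whole table was fitted in R 4.3.3 by edgeR 4.0.16 (glmQLFit, robust; glmQLFTest), with the daughter as block and library size summed over both alleles. A gene entered when at least 5 daughters had 10 reads of it, which 2981 genes met, and p-values were adjusted by Benjamini-Hochberg. DESeq2 1.42.0 was the other tool. SEs are the size of the log2 difference over the root of its F statistic. The fit and the correlation test were tested on simulated data. Permutations were exact under 10 daughters and 100000 otherwise. Python 3.11.15 was used with SciPy 1.17.1, NumPy 2.4.6, pandas 2.3.3 and matplotlib 3.10.9. Chromosomes, neighbours and overlaps came by symbol from the gene table of T2T-MFA8v1.1, another build, which matched 47 of 48 receptor genes, and none of its coordinates is given.

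Named genes followed a fixed rule: receptor genes measured in 5 or more daughters, X-linked and serotonin receptor genes, those with an unequal measurement of 20 or more reads, those with the 5 smallest p-values, and values by daughter for the 8 with the highest dispersion. Results of 1 receptor gene and 1 neighbouring gene are not reported here by name, and counts over the receptor genes keep the former. Other measured receptor genes and all neighbouring genes were named after their values were seen. Daughters are separate animals, so the SD is between animals. Some of them share a mother or a father, which neither the SDs nor the fits take into account. Alternatives were other normalisations, read minimums, intervals and tools, leaving out each daughter, and exchanging the columns of 5 daughters.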

Additional observations from a re-analysis of the deposited data

Results flagged for a closer look

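Among 21 receptor genes measured in 4 or more daughters, 3 had a daughter whose distance to the nearest of the others was large for the gene's whole range, by Dixon's 95% criterion. Chance flags about 1 in 20 groups, and each gene was examined at both ends. The share of genes flagged over the whole table was not computed. The 3 of 21 are therefore not shown to be unusual for receptor genes. P2RY11 had a paternal share of 1.47% of 68 reads in daughter 4, against 52.7% to 62.7% in the other 4 daughters. P2RX6 had 13.3% of 75 reads in daughter 9, against 37.9% to 62.3% in 8 others. CHRNA7 had 92.9% of 14 reads in daughter 8, against 42.9% to 63.6% in 7 others. CHRNA7 rests on the fewest reads of these 3. With the columns of daughters 2, 6, 7, 8 and 9 exchanged, CHRNA7 and P2RX6 again passed that criterion, P2RY11 did not, and CHRNA4 and GRIN1 did through daughter 2, at 14.3% and 42.6%.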

How the results depend on the processing

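No receptor gene was called for the parental columns or for title prefix under any alternative run, with 14 to 48 receptor genes tested. Over all genes the parental count of 0 became 2 without a read filter (FAM199X and ZIM2), 2 without daughters 2, 6, 7, 8 and 9, and 4 with their columns exchanged, both chosen after seeing the data, and 0 to 1 when each daughter was left out. The prefix count of 1 became 0 with 20 or more reads, 0 without a filter and 0 with DESeq2, and 0 to 2 when each daughter was left out, with 0 without daughters 1, 3, 4 and 5 in turn and 2 without daughters 7 and 9. The percent of receptor measurements excluding 50% was 16.2, from 14.7 to 17.4 when each daughter was left out, 19.2 and 23.1 with 20 and 50 reads, and 15.4 without genes overlapping another coding gene, an alternative added after seeing the data. The percent with 90% or more on 1 allele went from 0.769 to 0 without daughter 4, who gave the 1 measurement. The median distance of X-linked measurements, 23.0 points, was 9.13 within prefix 10480, which has 4 such measurements, and 26.7 within prefix 10203. Receptor genes with dispersion above 2 numbered 8, and 5 to 8 when each daughter was left out, with the 5 reached without daughter 8. Correlated receptor genes numbered 3 of 6, 1 of 2 with 20 reads, and 1 to 3 when each daughter was left out, where 2 to 6 genes still had 8 daughters. GRIN1 was among them each time. Of 190 alternative values of mean shares of the 20 genes, 189 stayed within 1 SD of the reported ones, and GABBR2 went from 43.6% to 55% with the columns exchanged. The maternal and paternal columns are paired within a daughter, and each parental fit has the daughter as block. Few reads limit single measurements most in daughter 1.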
